A study of Mus musculus with 2 samples.

Results

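The 10 genes described here make, activate or break down eicosanoids, and were followed across the cells of infarcted mouse brain: the cyclooxygenases Ptgs1 and Ptgs2, the prostaglandin synthases Ptges, Ptgds and Hpgds, the leukotriene pathway genes Alox5, Alox5ap, Lta4h and Ltc4s, and the leukotriene-degrading Cyp4f18. They were chosen by symbol, and all 10 were found among the 31253 features of the count tables. In brief, the genes were split among cell classes. Ptgs1 was high in microglia-like and neutrophil-like cells, Ptgs2 in infiltrating myeloid classes, Ptges in vascular and fibroblast-like cells, and Ptgds in choroid plexus, fibroblast-like and oligodendrocyte-like cells. Alox5 and Alox5ap were highest in neutrophil-like cells, while Hpgds and Ltc4s were highest in border-associated macrophage-like cells, an order that changed when each cell was gated by itself. Between the libraries, Cyp4f18 was lower in the cKO library by a factor of 4.17 to 6.65 in the 4 classes where it could be compared. Of all gene and class pairs, 5.19% were at least 2-fold lower. That share was 31.9% in monocyte or macrophage-like cells among genes with 55 to 60% GC near the transcript end, the range of Cyp4f18.

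The study profiled single cells from infarct tissue taken 3 days after transient middle cerebral artery occlusion (tMCAO), a model of ischaemic stroke with reperfusion. One library came from flox mice, called WT in the design text, and 1 from Hilpda cKO mice. The Hilpda protein sits on lipid droplets and restrains ATGL, an enzyme that breaks down stored triglyceride. Both groups had tMCAO, and no uninjured brain was analysed here. The sources used here do not give the Cre driver, the deleted exons, or the number, age and sex of the animals. Over all kept cells the Hilpda level was 273 CPM for flox and 214 CPM for cKO, where CPM is a gene's share of the summed UMIs scaled to a common total. A 3′ tag can lie outside the deleted part, so this level checks nothing. With 1 library per group there is no replicate check, no p-value is given, and library preparation cannot be told apart from genotype. Intervals are 95% and cover counting error only.

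Eicosanoids are short-lived lipid signals made from arachidonic acid that phospholipases release from membranes. Cyclooxygenases turn arachidonic acid into prostaglandin H2, and terminal synthases then make prostaglandin E2, D2, prostacyclin or thromboxane. 5-Lipoxygenase, helped by its activating protein, makes leukotriene A4 instead, which becomes the neutrophil attractant leukotriene B4 or the cysteinyl leukotriene C4. In the injured brain these signals are known for acting on vessel tone, barrier leakage, fever, sleep and leukocyte recruitment. Because the enzymes of a chain can sit in different cells, the level of each gene by cell type is the quantity described here.

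After filtering, 8065 flox and 6983 cKO cells remained, with a median of 6997 and 8740 UMIs per cell. In all, 56 cell barcodes occurred in both libraries. Cells were clustered and the clusters named "-like" from marker lists. Both libraries held 100 cells or more of 8 classes, which were compared, and 50 or more of another 3 (astrocyte-like, choroid plexus epithelial cell-like and neuroblast-like), which entered the levels. Fibroblast-like cells numbered 34 in flox and 103 in cKO and are described only. Microglia-like cells made up 26.6% of flox and 20.2% of cKO cells, monocyte or macrophage-like cells 45.1% and 44.2%, and neutrophil-like cells 2.48% and 4.28%. The 10 genes were left out of the variable genes on which clusters were built. Differences between classes are described and not tested. UMIs are not scaled for transcript length, so levels are set side by side only within a gene.

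**Figure D1:**
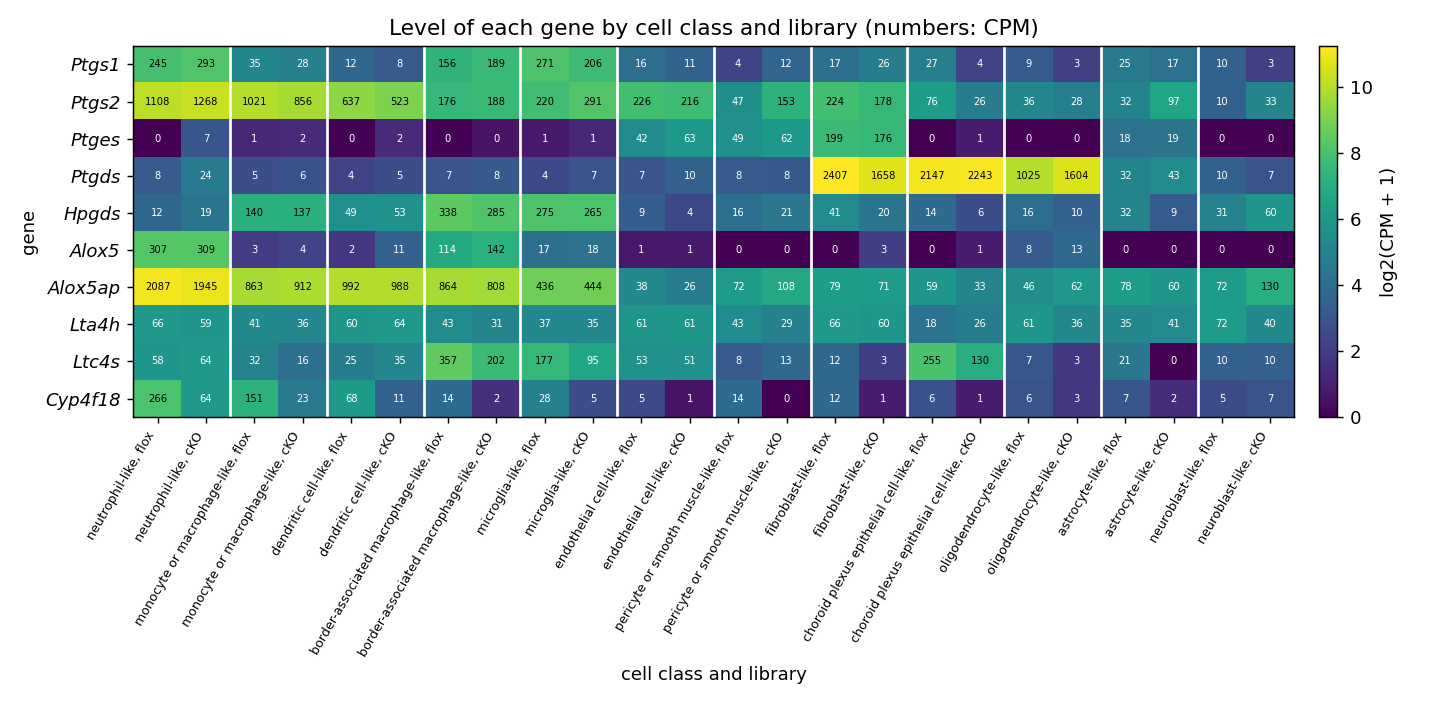
Level of each gene (rows) in 12 cell classes, flox and cKO side by side (columns). Colour is log2(CPM + 1) and the printed number is CPM. The bright blocks move from the left-hand myeloid classes for Alox5ap and Ptgs2 to the fibroblast, choroid plexus and oligodendrocyte classes for Ptgds, and Lta4h has no bright block.

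The stretch before the RefSeq start of each gene was read for 9 of the 10 genes (GRCm38.p6, Alox5ap was not matched). These starts differ for some genes from the ends of the gene spans given below. The stretches of Ptges (chr2:30903298-30903547) and Ptgds lie wholly inside those spans, and those of Ltc4s and Hpgds overlap them. Searched on both strands, the letters GAGGAA, a core of sites bound by the myeloid factor PU.1, occurred in 7 of the 9 stretches of 250 bases, and in 23.3% of 32851 promoters of that length. The palindrome TTGCGCAA, a C/EBP site, occurred in Ptgs2 at -69 from the start and in 0.164% of all promoters. GGGCGG, the GC box, occurred in 4 of the 9 and in 32.7% of all. Ltc4s and Ptgds held none of the motifs searched, which also were TATAAA (12.4% of all), CACGTG (6.02%), TGACG (17.8%) and an NF-kB decamer (0.14%). A match describes letters only. The 2 cyclooxygenases are shown because they had opposite patterns within microglia-like cells, and Alox5 because it was weighted to neutrophil-like cells. Capitals mark the motifs, at -24 in Ptgs1, at -247 (GAGGAA), -170 (GGGCGG) and -69 (TTGCGCAA) in Ptgs2, and at -136 (GAGGAA) and -35 (GGGCGG) in Alox5, each 5′ to 3′ in the direction of the gene.
Ptgs1, chr2:36230176-36230425, plus strand: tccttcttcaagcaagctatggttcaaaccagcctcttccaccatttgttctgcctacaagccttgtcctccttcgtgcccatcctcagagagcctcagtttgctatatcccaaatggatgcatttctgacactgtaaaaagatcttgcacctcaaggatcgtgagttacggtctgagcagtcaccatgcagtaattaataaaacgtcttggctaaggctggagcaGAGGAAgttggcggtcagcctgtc
Ptgs2, chr1:150099781-150100030, plus strand: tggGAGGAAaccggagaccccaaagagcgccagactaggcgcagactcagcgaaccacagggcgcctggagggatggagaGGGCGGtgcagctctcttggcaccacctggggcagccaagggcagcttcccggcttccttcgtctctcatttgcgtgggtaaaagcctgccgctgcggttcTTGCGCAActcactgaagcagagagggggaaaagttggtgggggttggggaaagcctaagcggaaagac
Alox5, chr6:116461179-116461428, minus strand: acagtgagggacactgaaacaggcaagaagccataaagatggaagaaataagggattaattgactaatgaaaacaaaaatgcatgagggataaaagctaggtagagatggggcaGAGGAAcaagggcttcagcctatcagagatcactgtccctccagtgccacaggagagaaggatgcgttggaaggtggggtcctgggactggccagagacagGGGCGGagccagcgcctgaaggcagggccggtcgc

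Ptgs1 encodes cyclooxygenase-1, the constitutive enzyme of prostanoid synthesis, and lies at chr2:36230426-36252272 on GRCm38. Its level was 271 CPM (264.6 to 278.3) in flox and 206 CPM (199.8 to 212.3) in cKO microglia-like cells. Neutrophil-like cells had 245 CPM (186.4 to 315.8) and 293 CPM (243.5 to 349). In flox the intervals of these classes overlapped, and in cKO the neutrophil-like level was the higher. Border-associated macrophage-like cells followed at 156 and 189 CPM, and monocyte or macrophage-like cells stood at 34.8 and 28.4 CPM. Dendritic, endothelial, oligodendrocyte-like and mural classes lay between 3.35 and 15.7 CPM. Microglia-like cells held 79.2% of the Ptgs1 UMIs in flox and 72.8% in cKO.

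Within microglia-like cells Ptgs1 followed the clusters. The cluster led by Siglech and P2ry12, genes of homeostatic microglia, had 609 CPM (flox) and 605.5 CPM (cKO). The cluster led by Gpr84 and Cx3cr1 had 399 and 352 CPM, and the cycling cluster led by Top2a had 244 and 231 CPM. The lowest level was in the cluster led by Mmp12 and Lpl, genes of lipid-associated activated microglia, at 111 and 85.6 CPM. The highest and the lowest cluster therefore stood far apart in both libraries. The Siglech cluster held 688 of 2145 microglia-like cells in flox and 263 of 1410 in cKO. Over the whole class the log2 ratio of cKO over flox was -0.40 (-0.46 to -0.34), while within the Siglech cluster it was -0.01 (-0.12 to 0.10), within the cycling cluster -0.08 (-0.18 to 0.02) and within the Mmp12 cluster -0.37 (-0.51 to -0.23). The part of cluster make-up in the class ratio was not tested beyond these values.

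**Figure D2:**
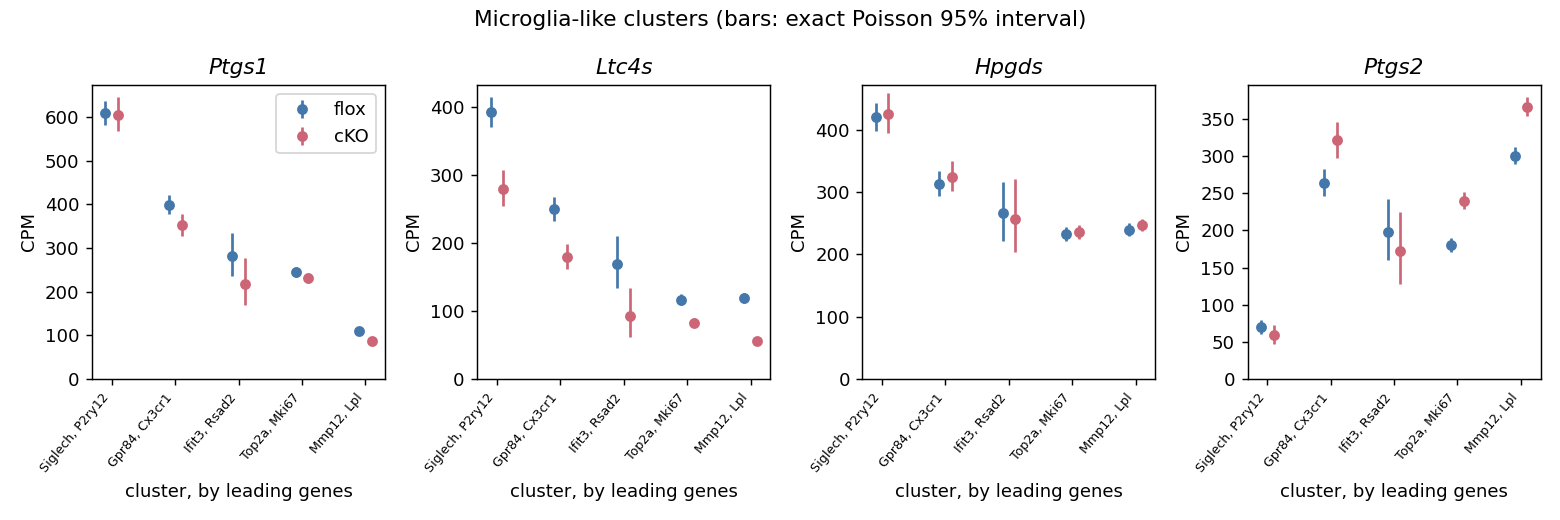
CPM of Ptgs1, Ltc4s, Hpgds and Ptgs2 in 5 microglia-like clusters, ordered from the Siglech, P2ry12 cluster to the Mmp12, Lpl cluster; blue is flox, red is cKO, bars are exact Poisson intervals. Ptgs1 goes from 609 CPM at the left to 111 CPM at the right in flox, Ptgs2 goes from 69.1 to 300.7 CPM, and Ltc4s is lower in cKO in all 5.

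Ptgs2 encodes cyclooxygenase-2, the inducible form, at chr1:150100031-150108227. Its level was highest in neutrophil-like cells, at 1108 CPM (979.1 to 1249) in flox and 1268 CPM (1163 to 1379) in cKO. Those of the monocyte or macrophage-like class had 1021 CPM (1009 to 1032) and 856 CPM (845.5 to 865.8), and the neutrophil-like interval overlapped theirs in flox but not in cKO. Dendritic cell-like cells had 637 and 523 CPM. Microglia-like cells had 220 and 291 CPM, endothelial cell-like cells 226 and 216 CPM, and border-associated macrophage-like cells 176 and 188 CPM. The lowest compared class was oligodendrocyte-like, at 36.2 and 28.1 CPM. Since neutrophil-like cells are few and shallow, monocyte or macrophage-like cells held 81.4% of all Ptgs2 UMIs in flox and 75.3% in cKO. The 12 monocyte or macrophage markers summed to 2228 and 1726 CPM in neutrophil-like cells, with none at 0, against 8557 and 9455 CPM in their own class. The part of other cells' RNA in the neutrophil-like level was not tested.

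Across clusters Ptgs2 ran opposite to Ptgs1 in microglia-like cells. It stood at 69.1 CPM (flox) and 58.6 CPM (cKO) in the Siglech cluster and at 300.7 and 367 CPM in the Mmp12 cluster. The Gpr84 cluster, at 264 and 321 CPM, was high for both cyclooxygenases. Among monocyte or macrophage-like clusters, the one led by Lyz1, Chil3 and Cxcl3 had 1349 and 1150 CPM, the Ccr2 and Plac8 cluster 1217 and 1124 CPM, and the Fabp4 and Cd36 cluster 908 and 657 CPM. The interferon cluster led by Slfn4 and Rsad2 had 974 and 1028 CPM, and the small cycling cluster led by Pclaf and Top2a 386 and 659 CPM. The cKO over flox ratio was below 0 in the Lyz1, Ccr2, Fabp4 and Lyz2-led clusters, from -0.47 to -0.12 on the log2 scale, each with an interval under 0. In microglia-like cells it was 0.41 (0.35 to 0.46), with 0.29 (0.21 to 0.36) in the Mmp12 cluster and -0.24 (-0.60 to 0.12) in the Siglech cluster. All of these differences were under 2-fold.

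In pericyte or smooth muscle-like cells Ptgs2 stood at 47.2 CPM (23 UMIs) in flox and 153 CPM (116 UMIs) in cKO, a log2 ratio of 1.69 (1.04 to 2.41). A single cKO cell carried 59 of the 116 UMIs. The gene was seen in 14 of 107 flox and 11 of 109 cKO cells. Without the cell with the most Ptgs2 UMIs in each library the ratio was 1.09 (0.29 to 1.97), a setting added after seeing the data. With equal weight per cell it was 0.07 (-0.59 to 0.78), and with each cell gated by itself it turned to -0.696 (-1.006 to -0.388). At a limit of 10% mitochondrial UMIs the class had too few cells to be compared.

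Ptges encodes the inducible, membrane-bound prostaglandin E synthase, at chr2:30889471-30929863. Its level was highest in vascular and mesenchymal classes. Fibroblast-like cells had 199 CPM (146.6 to 263.7) in flox and 176 CPM (153.4 to 201.3) in cKO. Pericyte or smooth muscle-like cells had 49.3 and 61.9 CPM, and endothelial cell-like cells 42.4 and 63.4 CPM, with overlapping intervals between these 2 classes. In contrast, monocyte or macrophage-like cells, which held most Ptgs2, had 1.42 and 1.56 CPM, and microglia-like cells 0.764 and 1.42 CPM. Border-associated macrophage-like cells had 0 UMIs in flox, with an upper limit of 2.08 CPM, and 1 UMI in cKO. Within endothelial cell-like cells, the cluster led by Tmem252 and Ackr1 had 51.5 and 68.6 CPM, and the Spock2, Slco1a4 cluster 25.9 and 34.9 CPM. The endothelial log2 ratio was 0.58 (0.26 to 0.91), and within the Ackr1 cluster 0.41 (0.06 to 0.78). That cluster held 317 of 563 endothelial cell-like cells in flox and 432 of 542 in cKO. In the whole class the 9 endothelial markers summed to 16399 CPM (flox) and 12517 CPM (cKO). The 11 microglia markers, among them Sparc, which endothelial cells also express, summed to 8194 and 10836 CPM. The part of these sums in the endothelial ratios was not tested.

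Ptgs2 and Ptges act in sequence for inducible prostaglandin E2. Endothelial cell-like cells had both genes as a class, at 226 and 216 CPM for Ptgs2 beside the Ptges levels above. The 12 monocyte or macrophage markers summed to 2773 CPM (flox) and 2913 CPM (cKO) in this class. The part of other cells' RNA in its Ptgs2 level was not tested. Fibroblast-like cells (34 in flox and 103 in cKO) also had both genes. Their Ptgs2 level was 224 and 178 CPM, and their Ptges level 199 and 176 CPM. Whether single macrophages hold both could not be seen at this depth, since Ptges there was near 1 CPM.

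Ptgds encodes lipocalin-type prostaglandin D synthase, a secreted enzyme of choroid plexus, meninges and oligodendrocytes, at chr2:25466709-25470046. Choroid plexus epithelial cell-like cells had 2147 CPM (2019 to 2280) in flox and 2243 CPM (2161 to 2327) in cKO. Fibroblast-like cells had 2407 CPM (2215 to 2611) and 1658 CPM (1587 to 1732), and oligodendrocyte-like cells 1025 CPM (983.1 to 1069) and 1604 CPM (1554 to 1656). The order of fibroblast-like and choroid plexus cells differed between libraries. Every other named class with at least 50 cells per library lay at or under 43.1 CPM. The myeloid classes other than neutrophil-like cells lay between 3.98 and 7.82 CPM.

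Oligodendrocyte-like cells were uneven in Ptgds. The small cluster led by Mal, which counts Ptgds among its leading genes, had 5950 CPM in flox (59 cells) and 7333 CPM in cKO (52 cells). The larger cluster led by Gpd1 and Il33 had 438 and 866 CPM in 289 and 308 cells. The log2 ratio of cKO over flox was 0.30 (0.20 to 0.40) in the Mal cluster, 0.98 (0.86 to 1.10) in the Gpd1 cluster and 0.65 (0.57 to 0.72) over the class, so the Gpd1 cluster came close to 2-fold and the class did not. The 7 choroid plexus markers summed to 291 CPM (flox) and 380 CPM (cKO) oligodendrocyte-like cells, and the 6 fibroblast markers to 5.96 and 7.97 CPM. Their part in the Ptgds difference was not tested.

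Hpgds encodes the haematopoietic prostaglandin D synthase, the cytosolic counterpart of Ptgds, at chr6:65117293-65144908. Its highest classes were myeloid, unlike those of Ptgds. Endothelial cell-like cells were low for both, at 9.26 (flox) and 4.33 CPM (cKO) of Hpgds and 6.76 and 10.2 CPM of Ptgds. Border-associated macrophage-like cells had 338 CPM (311.6 to 366.4) in flox and 285 CPM (262.2 to 309) in cKO. Microglia-like cells had 275 CPM (268.1 to 281.9) and 265 CPM (258.2 to 272.4), whose intervals overlapped the former only in cKO. Monocyte or macrophage-like cells had 140 and 137 CPM, and dendritic cell-like cells 48.5 and 53.3 CPM. Oligodendrocyte-like cells had 15.6 and 10.5 CPM, and choroid plexus cells 14.3 and 5.56 CPM. The microglia-like ratio was -0.05 (-0.10 to 0.00) and the monocyte or macrophage-like ratio -0.02 (-0.08 to 0.04), the narrowest intervals around equal levels among the prostaglandin synthases. Among microglia-like clusters Hpgds went from 421 CPM (flox) and 426 CPM (cKO) in the Siglech cluster to 240 and 247 CPM in the Mmp12 cluster.

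Ptgs1 and Hpgds, which together convert arachidonic acid to prostaglandin D2, met in microglia-like and in border-associated macrophage-like cells as classes. The latter had 156 and 189 CPM of Ptgs1 and 338 and 285 CPM of Hpgds. In microglia-like cells thinned to 1000 UMIs, 31.6% (27.7 to 35.7) of Hpgds-positive flox cells and 25.3% (23.1 to 27.5) of Hpgds-negative cells had a Ptgs1 UMI. The cKO shares were 24.7% (20.2 to 29.6) and 20.6% (18.2 to 23.1), with overlapping intervals. Both genes were also highest in the Siglech cluster.

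**Figure D3:**
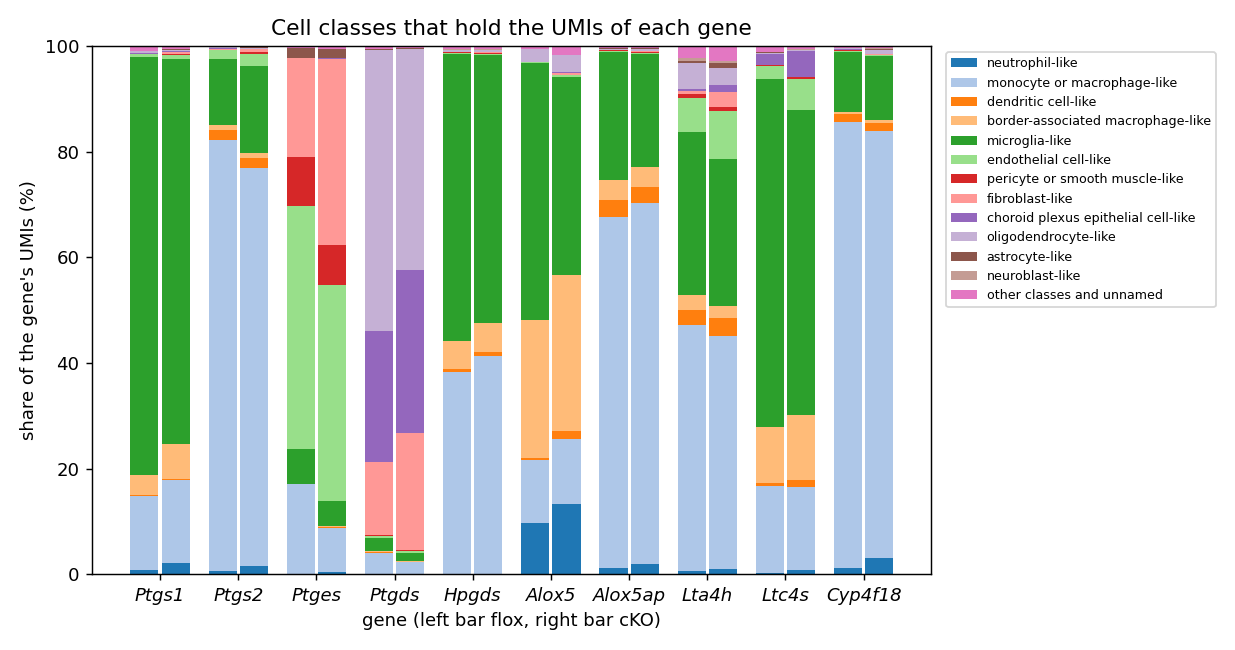
Share of the UMIs of each gene held by each cell class, as stacked bars that reach 100%; the left bar of a pair is flox and the right bar cKO. Monocyte or macrophage-like cells hold 81.4% of Ptgs2 and 84.4% of Cyp4f18 in flox, microglia-like cells 79.2% of Ptgs1, and non-myeloid classes nearly all of Ptgds and most of Ptges.

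Alox5 encodes 5-lipoxygenase, the entry enzyme of leukotriene synthesis, at chr6:116410077-116461178. Neutrophil-like cells had 307 CPM (241.1 to 385.5) in flox and 309 CPM (258.5 to 366.9) in cKO. Border-associated macrophage-like cells came next at 113.5 and 142 CPM, clear of the neutrophil-like interval in both libraries. Microglia-like cells had 16.8 and 18.0 CPM and monocyte or macrophage-like cells 3.01 and 3.77 CPM. No UMI was counted in pericyte or smooth muscle-like cells of either library. Despite the low level per cell, microglia-like cells held 48.6% of Alox5 UMIs in flox and 37.5% in cKO, and border-associated macrophage-like cells, 2.34% and 2.69% of cells, held 26.1% and 29.6%.

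Alox5ap encodes the activating protein that presents arachidonic acid to 5-lipoxygenase, at chr5:149264767-149288153. It was spread over all myeloid classes. Neutrophil-like cells had 2087 CPM (1909 to 2278) in flox and 1945 CPM (1815 to 2083) in cKO. Dendritic cell-like cells had 992 and 988 CPM, monocyte or macrophage-like cells 863 and 912.5 CPM, border-associated macrophage-like cells 864 and 808 CPM, and microglia-like cells 436.5 and 444.5 CPM. Endothelial cell-like cells had 37.7 and 26.0 CPM. Monocyte or macrophage-like cells held 66.4% and 68.3% of its UMIs but only 12.1% and 12.3% of those of Alox5. In these cells, thinned to 1000 UMIs, 9 of 2094 Alox5ap-positive and 9 of 1507 Alox5ap-negative flox cells had an Alox5 UMI, and in cKO 11 of 1796 and 2 of 1248. The cKO over flox ratio of Alox5ap lay between -0.10 and 0.08 in all 5 myeloid classes.

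Lta4h encodes the hydrolase that makes leukotriene B4, at chr10:93453411-93484875. It had no class of its own, and stood between 18.4 and 71.7 CPM in flox and between 26.2 and 63.8 CPM in cKO over the 11 classes. Monocyte or macrophage-like cells had 40.8 and 36.2 CPM, microglia-like cells 37.4 and 35.5 CPM, and endothelial cell-like cells 61.2 and 60.6 CPM. In neutrophil-like cells it rested on 16 and 25 UMIs. In oligodendrocyte-like cells the libraries did not overlap, at 61.0 CPM (flox) and 36.1 CPM (cKO), a log2 ratio of -0.76 (-1.17 to -0.36).

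Ltc4s encodes leukotriene C4 synthase, at chr11:50236461-50238616. Border-associated macrophage-like cells had 357 CPM (330.1 to 386.3) in flox and 202 CPM (183.3 to 222.7) in cKO, choroid plexus cells 255 and 130 CPM, and microglia-like cells 177 CPM (171.5 to 182.6) and 95.1 CPM (90.9 to 99.4). Endothelial cell-like cells had 52.7 and 50.7 CPM, and monocyte or macrophage-like cells 31.8 and 16.4 CPM. The libraries did not overlap in border-associated macrophage, microglia and monocyte or macrophage-like cells, with log2 ratios of -0.82 (-1.003 to -0.64), -0.90 (-0.98 to -0.82) and -0.95 (-1.11 to -0.80), each short of 2-fold. In endothelial cell-like cells the ratio was -0.06 (-0.37 to 0.26) and in dendritic cell-like cells 0.47 (-0.21 to 1.17). Within the endothelial cluster led by Tmem252 and Ackr1, whose share of the class differed between the libraries, it was -0.34 (-0.68 to -0.009). Among microglia-like clusters the Ltc4s ratio was -0.48 in the Gpr84 cluster, -0.49 (-0.65 to -0.33) in the Siglech cluster and -0.50 in the cycling cluster. It was -0.86 (-1.54 to -0.23) in the cluster led by Ifit3 and -1.11 (-1.27 to -0.95) in the Mmp12 cluster.

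Cyp4f18 encodes a cytochrome P450 that oxidises and so inactivates leukotriene B4, at chr8:71988482-72009626. Neutrophil-like cells had 266 CPM (204.5 to 339.2) in flox and 63.7 CPM (42 to 92.7) in cKO. In monocyte or macrophage-like cells it had 151 CPM (147.1 to 155.8) and 22.8 CPM (21.1 to 24.5), from 4680 and 730 UMIs. Dendritic cell-like cells had 68.5 and 10.5 CPM, and microglia-like cells 28.3 and 5.38 CPM. The libraries did not overlap in any of the 4 classes. The log2 ratios were -2.06 (-2.77 to -1.39) in neutrophil-like, -2.73 (-2.85 to -2.62) in monocyte or macrophage-like, -2.70 (-3.63 to -1.88) in dendritic cell-like and -2.40 (-2.70 to -2.10) in microglia-like cells. All 5 monocyte or macrophage-like clusters with enough UMIs shared the difference, from -2.71 to -2.47. A Cyp4f18 UMI was present in 62.8% of flox and 19.2% of cKO monocyte or macrophage-like cells (median 7931 and 10060 UMIs). At 1000 UMIs per cell, which leaves out 34 flox and 39 cKO cells, the shares were 14.1% and 2.595%. Endothelial cell-like cells had 1.60% and 0.369% unthinned at 3948 and 5640 UMIs.

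Of 53 pairs of gene and class with at least 30 UMIs in the higher library, 4 passed the size rule in the lower direction, all of them Cyp4f18. The rule asked for at least 2-fold and an interval that leaves out equal levels. Over all genes in the 8 classes, 5.19% of 57868 pairs passed as lower and 1.06% as higher in cKO. One pair passed as higher, Ptgs2 in pericyte or smooth muscle-like cells, where 3.62% of all genes passed. In the 4 classes of Cyp4f18, the share of all genes passing as lower was 2.91% in neutrophil-like, 5.38% in monocyte or macrophage-like, 4.65% in dendritic cell-like and 5.86% in microglia-like cells, and it was 4.8% in border-associated macrophage-like, 6.4% in endothelial cell-like, 4.66% in oligodendrocyte-like and 4.17% in pericyte or smooth muscle-like cells. The share passing as higher was 2.87% in neutrophil-like, 0.572% in monocyte or macrophage-like, 0.579% in dendritic cell-like, 0.521% in microglia-like, 1.12% in border-associated macrophage-like, 0.873% in endothelial cell-like and 1.02% in oligodendrocyte-like cells. The median log2 ratio of the 53 pairs was -0.01 and that of all pairs was also -0.01. The share of lower and the share of higher pairs were thus near those of all genes. Of the 4 lower pairs, the nearest to the 2-fold bound was Cyp4f18 in neutrophil-like cells, well past it at -2.06. Just short of the bound was Ltc4s in monocyte or macrophage-like cells at -0.95.

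**Figure D4:**
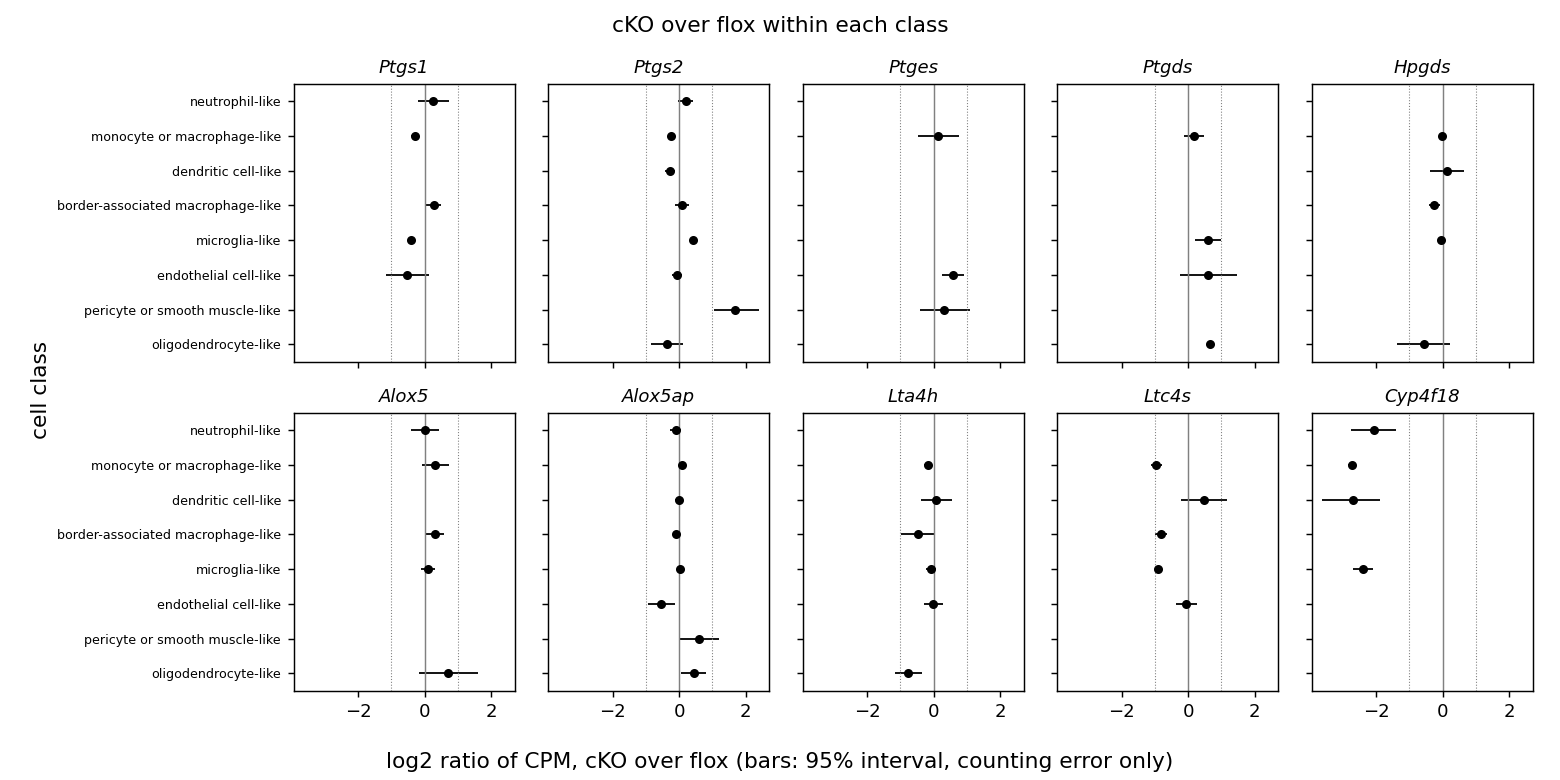
Log2 ratio of CPM, cKO over flox, for each gene in each compared class with at least 30 UMIs in the higher library; bars are exact intervals for counting error, and dotted lines mark 2-fold. Cyp4f18 lies left of the 2-fold line in all 4 of its classes, Ltc4s lies short of it in 3 myeloid classes, and the pericyte or smooth muscle point of Ptgs2 at 1.69 is the lone point right of it.

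The transcripts of Ltc4s and Cyp4f18 are the richest in G and C of the 10, with 62% and 57.4% over their last 500 bases against a median of 44.4% over all genes. In monocyte or macrophage-like cells the share of all genes passing as lower went with this value, from 0.664% of genes under 40% GC to 31.9% of genes from 55 to 60% and 54.5% of genes from 60%. The median log2 ratio was -0.42 in genes from 55 to 60% GC and -1.08 in those from 60%. Ltc4s at -0.95 thus lay a little above the median of genes from 60%, and Cyp4f18 at -2.73 below that of its bin. Relative to the median of the genes in the same of 10 equal-sized GC bins, the last of which is wider than the bin from 60%, Cyp4f18 was at -1.95, -2.31, -2.34 and -1.91 in neutrophil, monocyte or macrophage, dendritic and microglia-like cells, and Ltc4s at -0.53 in monocyte or macrophage-like, -0.41 in microglia-like and -0.435 in border-associated macrophage-like cells. On this scale Ptgds, at 55% GC, passed 2-fold as higher in oligodendrocyte-like (1.02, 0.94 to 1.10), microglia-like (1.08, 0.69 to 1.47) and endothelial cell-like cells (1.05, 0.23 to 1.92), where the unmatched ratios were 0.65, 0.59 and 0.59. It was at 0.60 in monocyte or macrophage-like cells, where the unmatched ratio was 0.18. Ptgds fell in the same last bin as Ltc4s. In monocyte or macrophage-like cells the median was 0.029 in genes from 50 to 55% GC and -0.42 from 55 to 60%. The matched Ptgds values thus depend on where the last bin begins. Ptgds stood at 4.41 (flox) and 6.65 CPM (cKO) in microglia-like cells, from 98 and 136 UMIs. In endothelial cell-like cells it stood at 6.76 and 10.2 CPM, from 19 and 40 UMIs, against 2147 and 2243 CPM in choroid plexus cells. Minus the median of the other classes, the unmatched Ptgds ratio was 0.055 in oligodendrocyte-like, 0.003 in microglia-like and -0.003 in endothelial cell-like cells. The part of other cells' RNA in these Ptgds values was not tested. The part of GC content in the Cyp4f18 and Ltc4s differences was not tested further, and strand use in counting is not given. Zfp961, which overlaps Cyp4f18 on the opposite strand, had 3.20 CPM (flox) and 2.56 CPM (cKO) monocyte or macrophage-like cells.

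**Figure D5:**
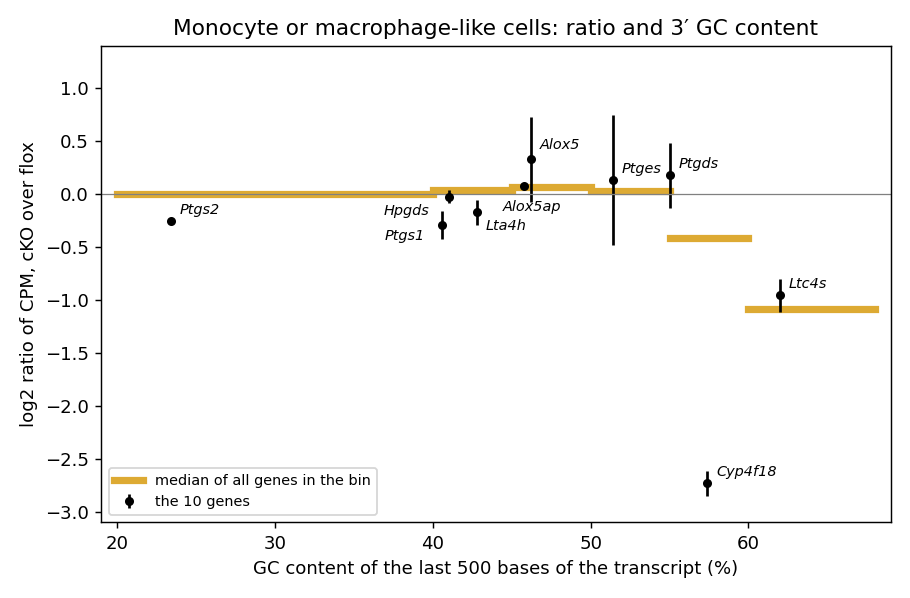
Log2 ratio of CPM, cKO over flox, in monocyte or macrophage-like cells against the GC content of the last 500 bases of the transcript. Black points are the 10 genes with exact intervals, and yellow lines are medians of all genes in each GC bin (the outer bins are drawn only over the plotted range). Ltc4s at -0.95 lies above the line at -1.08, and Cyp4f18 at -2.73 lies below the line at -0.42.

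Summed over all kept cells, 3 of the 10 genes passed the size rule, against 5.27% of 14165 genes lower and 2.61% higher. Cyp4f18 was lower, at 86.2 CPM (flox) and 13.3 CPM (cKO) (-2.70, -2.80 to -2.60). Ptgds was higher, at 65.4 and 134.7 CPM (1.04, 0.99 to 1.10), and Ptges was higher, at 4.01 and 8.997 CPM (1.17, 0.95 to 1.38). For Ptges no class passed with or without GC matching, and for Ptgds none passed without it. Choroid plexus cells made up 0.955% of flox and 2.33% of cKO cells, and fibroblast-like cells 0.422% and 1.48%, while the Ptgds level was similar in the former and lower in cKO in the latter. The part of these shares in the summed values was not tested further. Dissection and dissociation cannot be told apart from genotype in such shares.

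The class of highest level, where it rested on at least 30 UMIs, was the same in both libraries for 6 of the 10 genes: Ptgs2, Alox5 and Alox5ap in neutrophil-like, Hpgds and Ltc4s in border-associated macrophage-like, and Ptgds in choroid plexus cells. Fibroblast-like cells, whose flox level of Ptgds was higher, are too few to be ranked. The named class depended on the cells used. With each cell gated by itself, Hpgds was highest in microglia-like cells in both libraries, Ltc4s in choroid plexus (flox) and microglia-like cells (cKO), and Ptgs2 in monocyte or macrophage-like cells in flox. With doublets kept, Hpgds was highest in microglia-like cells in cKO. At a limit of 10% mitochondrial UMIs, Ptgds was highest in oligodendrocyte-like cells in both. Cyp4f18 was also highest in neutrophil-like cells in both, but on 27 UMIs in cKO.

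Of 65 other genes of the eicosanoid pathway, from phospholipases to receptors, 177 pairs of gene and class had enough UMIs. Of these, 7 passed as lower and 2 as higher in cKO, with a median of -0.09. These counts are near the 5.19% and 1.06% of all pairs, so they show nothing particular to the pathway, and the genes below are named by the size rule alone. Both higher pairs were Ptgis, the prostacyclin synthase of vessel walls. Ptgis stood at 22.1 CPM (flox) and 52.5 CPM (cKO) endothelial cell-like cells (1.25, 0.83 to 1.68) and at 10.3 and 39.5 CPM in pericyte or smooth muscle-like cells (1.94, 0.56 to 3.67, from 5 and 30 UMIs). The lower pairs in vascular cells were Alox12, a lipoxygenase, in endothelial cell-like cells (23.9 and 5.60 CPM), and Tbxa2r, the thromboxane receptor (113 and 32.9 CPM), and Mgll, monoacylglycerol lipase (61.6 and 26.3 CPM), in mural cells. The 5 platelet markers summed to 48.1 CPM (flox) and 7.39 CPM (cKO) in endothelial cell-like cells. In mural cells they summed to 53.4 and 11.8 CPM. The part of platelet RNA in these lower pairs was not tested. Among mural cells the 6 pericyte markers summed to 15078.5 CPM (flox) and 9495 CPM (cKO), and the 5 smooth muscle markers to 4687 and 4124 CPM. The 11 microglia markers, among them Sparc, summed to 7027 and 8748 CPM there. The part of these sums in the mural ratios, that of Ptgs2 included, was not tested. Cyp4f13, a relative of Cyp4f18 with 57.6% GC over its last 500 bases, was lower in monocyte or macrophage-like cells (8.77 and 2.06 CPM, -2.09) and in microglia-like cells (7.46 and 1.61 CPM, -2.21). In border-associated macrophage-like cells Pla2g2d, a secreted phospholipase, had 18.6 and 5.38 CPM, and Ggt5, which processes leukotriene C4, had 20.3 and 9.28 CPM.

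By group, the median ratio of the 11 of 15 genes of arachidonate release and remodelling with enough UMIs in microglia-like cells was -0.19. It was 0.13 for the 7 of 8 other prostanoid synthesis genes with enough UMIs in monocyte or macrophage-like cells. None of these genes passed, in groups where the share of all genes (5.86% lower in microglia-like and 5.38% lower in monocyte or macrophage-like cells) would give under 1 gene. The medians over all genes in these classes were -0.04 and 0.01. Tbxas1, the thromboxane synthase, was highest in border-associated macrophage-like cells at 57.0 CPM (flox) and 76.2 CPM (cKO). Tbxas1 was named after its values were seen.

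Profiles over the 11 classes and both libraries (22 points of log2(CPM + 1), which share libraries and depth) were compared with all other genes by Pearson's r, as a description. Ptgs1 was most like Ccl3 (0.923) and P2ry13 (0.917), and Ptgs2 most like Srgn (0.947) and Rin3 (0.938). Ptges was most like Ccn2 (0.959) and Lmcd1 (0.922), Ptgds most like Pcolce2 (0.968) and Ppp2r2c (0.922), and Hpgds most like C3ar1 (0.942) and Grn (0.941). Alox5 was most like Il16 (0.847) and Cd300ld (0.841), whereas Alox5ap reached 0.986 with Sla and 0.981 with Rac2, both leukocyte signalling genes. The values were lower for Lta4h (Prkd3, 0.82, and Kmt2d, 0.817), Ltc4s (Hprt, 0.882, and Trpv4, 0.743) and Cyp4f18 (Grk2, 0.842, and Mapkapk2, 0.834).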

How the data were processed

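BD Rhapsody single-cell libraries were analysed, 1 per group. The authors deposited unnormalized counts of UMIs for each gene in each cell barcode. The submitters' processing notes name CASAVA 1.8, STARsolo, Seurat and mm10, and the sources used here give no annotation, strand setting or cell caller. The total was 67864602 UMIs in flox and 70665440 in cKO.

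Cells needed 500 UMIs, 200 genes and at most 25% mitochondrial UMIs. Scrublet in scanpy 1.11.5 (expected rate 6%) marked 210 flox and 142 cKO doublets, which were left out, as was 1 mast cell. Leiden clustering (leidenalg 0.10.2; 2000 variable genes, 30 components, 20 neighbours, resolution 1) gave 29 clusters, named from marker lists of 22 classes with at least 3 markers. The naming rule was adjusted after the clusters were seen: 2 clusters of few UMIs with markers of another class stayed unnamed (202 flox and 173 cKO cells).

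UMIs of each class and library were added up and divided by their total (CPM). Ratios carry exact conditional intervals, levels exact Poisson and shares exact binomial (Clopper-Pearson) intervals. No test was made. GC content came from GENCODE models on GRCm38 for 31107 of 31253 features. A simulation with known folds checked the ratio script. Alternatives were other quality limits, doublets kept, other resolutions, a gate on single cells, edgeR 4.0.16 TMM scaling, equal weight per cell, other UMI minimums, GC matching and centring on other classes. The text names all 10 genes, other pathway genes past the size rule (at most 3 in each direction per class) and the 2 nearest profiles of each gene, with exceptions marked. The genes and lists were chosen with earlier results of these data known.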

Additional observations from a re-analysis of the deposited data

Results flagged for a closer look

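The cKO over flox ratio of 3 genes had opposite signs in 2 classes, each with an interval clear of equal levels. With 1 library per group the difference between the classes was not tested. For Ptgs1 the gap was 0.67 on the log2 scale, from 0.27 in border-associated macrophage-like to -0.40 in microglia-like cells, where the share of the Siglech cluster also differed between the libraries. For Ptgs2 it was 1.98, from 1.69 in pericyte or smooth muscle-like to -0.28 in dendritic cell-like cells, and 1 cell carried 59 of the 116 cKO UMIs of the former. For Alox5ap it was 0.97, from 0.44 in oligodendrocyte-like to -0.54 in endothelial cell-like cells, both classes far below the myeloid level.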

How the results depend on the processing

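The 4 lower pairs of gene and class were 9 with doublets kept, 8 with each cell gated by itself, 9 at a minimum of 10 UMIs, 2 at 100 UMIs and 0 after the median of the other classes was subtracted. The 1 higher pair was 0 at a limit of 10% mitochondrial UMIs, 0 with single-cell gating, 0 with equal weight per cell, 2 at 10 UMIs, 4 against genes of like GC content (3 of them Ptgds) and 2 against the other classes. For the other pathway genes, 7 lower pairs were 16 at 10 UMIs, 2 at 100 UMIs and 2 against the other classes, and 2 higher pairs were 1 at 10% mitochondrial UMIs, 9 at 10 UMIs, 1 at 100 UMIs and 0 against the other classes. Against the other classes, Cyp4f18 turned to 0.309 in microglia-like and 0.645 in neutrophil-like cells, since its ratio was low in all classes. Ptgs2 in pericyte or smooth muscle-like cells turned to -0.696 with single-cell gating. The causes were not tested. That gate kept the class of 25.7% of monocyte or macrophage-like and 65.7% of microglia-like cells. TMM moved class medians by at most 0.106. Thinning to 1000 UMIs changed the order of the libraries in 19 of 53 shares. No paired analysis was possible because each group has 1 library. Levels near 1 CPM rest on few UMIs.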

Other observations

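Slco2a1, the transporter that clears prostaglandins from the extracellular space, was named after its values were seen. Its level in endothelial cell-like cells was 97.2 CPM in the flox library and 191.8 CPM in the cKO library, from 273 and 753 UMIs, a log2 ratio of 0.98 (0.78 to 1.19) that stops short of 2-fold. In the same class Ptgis had a ratio of 1.25 and Ptges one of 0.58, whereas the other listed genes of prostanoid synthesis, transport and breakdown with enough UMIs (Ptges2, Ptges3, Cbr1, Akr1b3, Abcc4 and Ptgr2) lay between -0.16 and 0.06. The median over 8701 genes was -0.09. The 9 endothelial markers summed to 16399 CPM (flox) and 12517 CPM (cKO). The endothelial cluster led by Tmem252 and Ackr1 held 317 of 563 flox and 432 of 542 cKO cells of the class, and the part of either in these ratios was not tested.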
